A study of Homo sapiens with 4 samples.

Results

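The tumour suppressor p53 is a transcription factor that stress signals stabilise. It switches on genes that stop the cell cycle, repair DNA or kill the cell, and it switches on its own inhibitors, which closes a feedback loop. The ubiquitin ligase MDM2 and its partner MDM4 hold p53 in check, and deubiquitinases can act at several points of that loop. The genes described here are 34 p53 target genes and p53 regulators, picked by name from 63568 gene identifiers and each matched to 1 identifier. They fall into 4 regulators, 8 genes of arrest and growth control, 13 of cell death, 4 of DNA repair and 5 of metabolism or other roles.

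RNA-Seq was done on HGC-27, an established cell line from a gastric carcinoma, infected with lentivirus that carried either control shRNA (scrambled, 2 libraries) or USP47 shRNA (2 libraries). USP47 encodes a deubiquitinase, and the study used the comparison to find the signaling pathways that respond to its loss. The shRNAs were delivered in pLKO.1 as stable lines, and the sources used here do not say whether both knockdown libraries carry the same USP47 shRNA. The submitters call the libraries biological duplicates, whereas the methods speak of triplicate samples.

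Total counts ranged from 15649899 to 20140273 per library. USP47 itself was counted 1357 and 1297 times with control shRNA and 749 and 309 times with USP47 shRNA, so the knockdown libraries kept 49.3% and 29.5% of the control level. The fold change on the log2 scale was -1.34 (SE 0.21, adjusted p = 0.00362, edgeR). Of the 6 epithelial markers, KRT18 and KRT19 had 0 or 1 count in every library, EPCAM between 3 and 12, KRT8 between 10 and 19, CDH1 between 8 and 28 and CLDN4 between 41 and 77. Of the 6 mesenchymal markers, VIM had between 7201 and 9236 counts, TWIST1, ZEB1, FN1 and SNAI2 each had at least 301 counts in both control libraries, and CDH2 had between 3 and 10. With USP47 shRNA, FN1 (log2 fold change -1.34, adjusted p = 0.000602) and the scarce EPCAM (-1.84, adjusted p = 0.0416) fell and SNAI2 rose (0.50, adjusted p = 0.0448), and their part in the values of the p53 genes was not tested. The stromal markers DCN and LUM were also abundant, with at least 1111 counts in every library. PTPRC, CD3E, CD68, VWF and HBB had between 1 and 12 counts, and PECAM1 was not matched.

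Levels between genes can be compared only per length, so the deposited TPM values, a length-normalised abundance, of the control libraries were used to order the genes. The most abundant was CCNG1, whose product cyclin G1 recruits a phosphatase to MDM2, with 31.2 and 27.2 TPM. PLK2, a stress-induced polo-like kinase, followed with 30.3 and 25.4 TPM. Its range overlapped that of CCNG1, which was higher in each control library. MDM2 stood at 10.1 and 9.27 TPM, above 69.0% of the genes tested, and CDKN1A, which encodes the cell cycle inhibitor p21, at 5.04 and 5.43 TPM, above 51.9%. The median of all genes tested was 4.83 TPM.

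At the low end, BBC3 had 1.32 and 0.926 TPM, SPATA18 1.03 and 0.900 TPM, and the secreted stress cytokine GDF15 1.03 and 0.658 TPM. In this order, 17 of the 33 neighbouring pairs had overlapping control ranges, so the ranges alone do not resolve their order. Genes of such a pair can still keep the same order within each library, as CCNG1 and PLK2 did. For 4 genes the counts were too few for a test. EDA2R, a death receptor of the TNF receptor family, had 0 counts in all libraries, which allows up to 3 counts in a library, or 0.209 CPM (counts relative to library size after TMM scaling) in the shallowest one. PHLDA3, an inhibitor of Akt signaling, had 4 and 2 counts with control shRNA and 0 and 1 with USP47 shRNA, CYFIP2 had 3 and 7 against 2 and 2, and the noncoding FBXW7-AS1 1 and 2 against 1 and 1. Such floors cover counting error only.

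**Figure D1:**
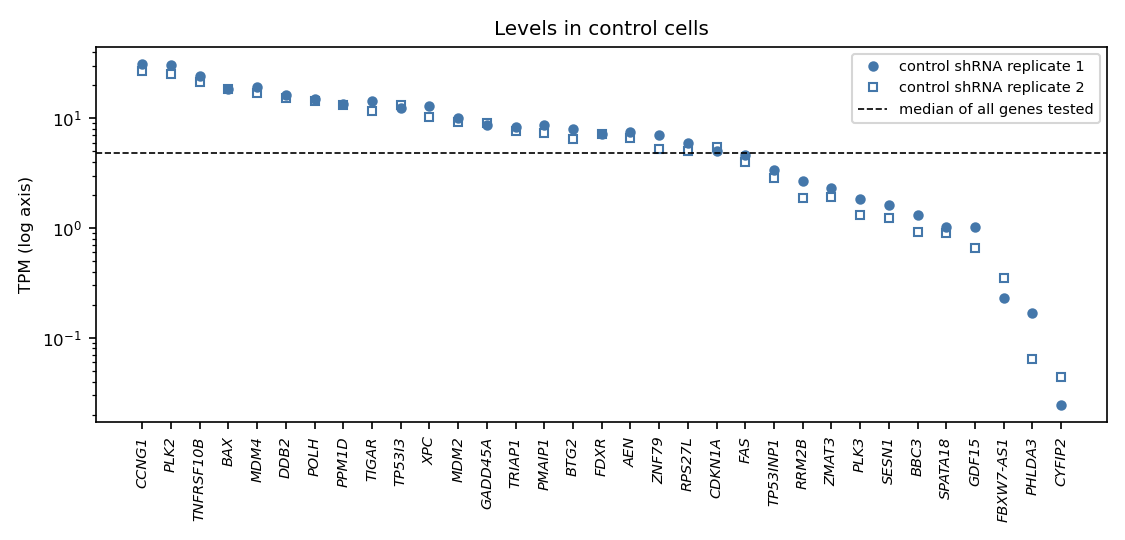
Levels of 33 p53 target genes and regulators in the 2 control shRNA libraries, as deposited TPM on a log axis, ordered by their mean (EDA2R, at 0, is left out). CCNG1 and PLK2 lead, CDKN1A lies close to the median of all genes tested (dashed line, 4.83 TPM), and FBXW7-AS1, PHLDA3 and CYFIP2 lie lowest.

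p53 binds a sequence made of a pair of decamers, so the reference sequence around each gene was searched for it. The p53 consensus, 20 bases with no spacer between the decamers, was searched in GRCh37 within 5 kb on each side of the start of the canonical transcript. It reads alike on both strands, so a single search covers both. Allowing up to 2 mismatches, 22 of the 34 genes (64.7%) held a match, beside 22.8% of 20097 protein-coding genes in windows of the same length. Allowing up to 1, these shares were 20.6% and 2.10%, and an exact match was found near 2 of the 34 genes, beside 0.149% of protein-coding genes. The genes are known p53 targets partly because p53 was found at them, so this excess is a property of how such genes came to be listed. The matches with the fewest mismatches near the called genes, and those near CDKN1A and PLK2, which were not called, are printed here from 5′ to 3′ on the strand of the gene, with the core of each decamer (positions 4 to 7) in capitals.
ZMAT3, exact, 1612 bases downstream of the start, chr3:178787976-178787995: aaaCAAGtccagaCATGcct
PLK2, exact, 2198 bases upstream, chr5:57758101-57758120: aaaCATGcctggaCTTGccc
DDB2, 1 mismatch, 4 bases downstream, chr11:47236520-47236539: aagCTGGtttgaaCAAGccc
BBC3, 2 mismatches, 1378 bases upstream, chr19:47735825-47735844: gggTCTGcccaggCATGtcc
MDM2, 2 mismatches, 756 bases downstream, chr12:69202703-69202722: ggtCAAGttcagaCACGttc
MDM2, 2 mismatches, 3028 bases downstream, chr12:69204975-69204994: ggaCTTGcctagtCTTAtct
SPATA18, 2 mismatches, 452 bases upstream, chr4:52917009-52917028: aaaCTAGgtcaagAAAGtcc
SPATA18, 2 mismatches, 662 bases downstream, chr4:52918123-52918142: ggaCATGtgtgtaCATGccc
CDKN1A, 2 mismatches, 2256 bases upstream, chr6:36644226-36644245: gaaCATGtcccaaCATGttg
CDKN1A, 2 mismatches, 1374 bases upstream, chr6:36645108-36645127: gaaGAAGactgggCATGtct
A match of these letters does not show binding in these cells, and none was measured. Of the 3 genes that rose with USP47 shRNA, 2 held a match with up to 2 mismatches, as did 3 of the 4 that fell and 15 of the 23 that were not called. TP53INP1 and TRIAP1 were without such a match in this window.

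The p53 target genes did not move in a single direction when USP47 was depleted. Of the 30 genes tested, ZMAT3, BBC3 and TP53INP1 rose, and MDM2, TRIAP1, DDB2 and SPATA18 fell (adjusted p under 0.05, edgeR's quasi-likelihood test, Benjamini-Hochberg over 21932 genes). These 7 are 23.3% of the genes tested here, beside 16.1% of all genes tested. By role, 25% of the 4 regulators, 12.5% of 8 arrest genes and 30% of 10 death genes tested were called. The share was 25% of the 4 repair genes and 25% of the 4 others tested, so each rests on few genes. In single directions, 3 rose and 4 fell, whereas 6.52% of all genes rose and 9.56% fell. The median log2 fold change was 0.11 over the 30 genes and -0.0083 over all genes, with 19 of the 30 above 0 and 11 below. In 18 of the 30 both knockdown libraries lay outside the range of both controls on the same side, an order shown by 61% of all genes tested. These are bulk libraries, in which fewer cells of a kind and less RNA per cell cannot be told apart.

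**Figure D2:**
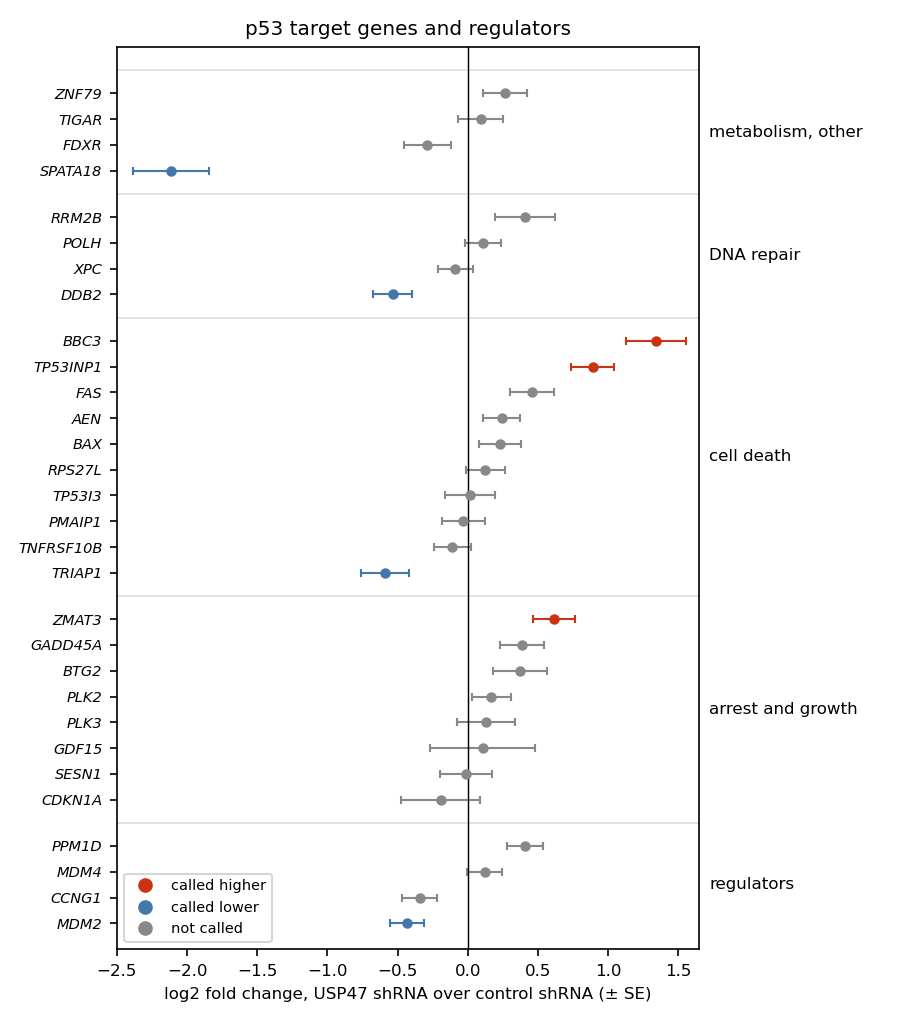
Log2 fold change of the 30 tested genes, USP47 shRNA over control shRNA, with bars of 1 SE, grouped by role. BBC3 (1.34) and TP53INP1 (0.89) lie farthest to the right, SPATA18 (-2.12) farthest to the left, and 23 genes (grey) were not called.

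Among the regulators, MDM2, the ligase that marks p53 for degradation and is itself a p53 target, fell. It had 55.8 and 58.0 CPM with control shRNA and 42.5 and 41.7 CPM with USP47 shRNA. The groups did not overlap, and the spread within each was small beside the gap. Its log2 fold change was -0.43 (SE 0.12, adjusted p = 0.0386), a level 0.741 times that of control. Both p53 sequences shown above lie within the gene (chr12:69201957-69239324), downstream of the first start. Exons of CPM on the other strand and of noncoding genes overlap MDM2, so some reads could be theirs if strand was not used in counting.

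The other regulators were not called. PPM1D, the phosphatase that dephosphorylates p53 and the kinases that activate it, had 30.01 and 33.8 CPM with control shRNA and 42.2 and 42.5 CPM with USP47 shRNA (log2 fold change 0.41, SE 0.13, adjusted p = 0.0575). CCNG1 had 66.3 and 65.7 CPM against 53.5 and 50.5 CPM (log2 fold change -0.34, SE 0.12, adjusted p = 0.0826). Both genes had groups that did not overlap, in opposite directions. MDM4, which binds p53 and masks its activation domain, was counted 2544 and 2957 times against 3465 and 2303 times (log2 fold change 0.12, 95% interval -0.16 to 0.40).

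Of the 8 genes of arrest and growth control, ZMAT3 was called in the comparison of all 4 libraries, or 12.5% beside 16.1% of all genes tested. ZMAT3, a zinc-finger RNA-binding protein, had 15.4 and 14.4 CPM with control shRNA and 24.9 and 20.7 CPM with USP47 shRNA. Both knockdown libraries lay above both controls, with a log2 fold change of 0.62 (SE 0.15, adjusted p = 0.0221). The gene (chr3:178677909-178790003) carries the exact p53 sequence printed above, and no exon of another gene overlaps it.

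CDKN1A, the best known arrest target of p53, was not called. It had 10.3 and 12.6 CPM with control shRNA and 6.64 and 13.9 CPM with USP47 shRNA, so the knockdown libraries lay on either side of the controls. The log2 fold change was -0.19 with a 95% interval from -0.82 to 0.43, which leaves room for a change in either direction. Without USP47 shRNA replicate 2 it was -0.79, and without USP47 shRNA replicate 1 it was 0.28. Exons of the antisense gene DINOL overlap CDKN1A.

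GDF15 showed the same split at a low count, with 25 and 21 counts in control libraries and 20 and 27 in knockdown libraries. BTG2, an antiproliferative cofactor of mRNA deadenylation, had 15.0 and 13.8 CPM with control shRNA and 15.1 and 22.5 CPM with USP47 shRNA. Its log2 fold change of 0.37 (adjusted p = 0.208) thus rests on 1 knockdown library. It was 0.65 without USP47 shRNA replicate 1 and 0.068 without replicate 2. GADD45A, a growth arrest and DNA damage protein, had 12.3 and 14.6 CPM against 16.4 and 19.02 CPM (log2 fold change 0.39, adjusted p = 0.12). For PLK2, PLK3 and the sestrin SESN1 the log2 fold changes were 0.17, 0.13 and -0.0092, and the groups overlapped in all 3. The exact p53 sequence upstream of PLK2 thus stood beside a gene with no call.

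Of the 13 cell death genes, 10 were tested, and BBC3 and TP53INP1 rose while TRIAP1 fell. BBC3 encodes PUMA, a BH3-only protein that triggers apoptosis at mitochondria. It was counted 49 and 45 times with control shRNA and 125 and 103 times with USP47 shRNA, or 2.89 and 2.29 CPM against 6.01 and 7.18 CPM. Both knockdown libraries exceeded both controls by more than the spread within either group, and the level was 2.54 times that of control (log2 fold change 1.34, SE 0.21, adjusted p = 0.00369). The microRNA gene MIR3191 on the other strand overlaps its exons (gene at chr19:47724079-47736023).

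TP53INP1, a stress-induced protein of autophagy and cell death, had 13.3 and 12.7 CPM with control shRNA and 22.0 and 26.4 CPM with USP47 shRNA. The groups were well apart, with a log2 fold change of 0.89 (SE 0.15, adjusted p = 0.00478), or 1.85 times the control level. Exons of NDUFAF6 on the other strand overlap it on chromosome 8. TRIAP1, which moves lipids in mitochondria and is known to restrain apoptosis, had 8.31 and 8.66 CPM with control shRNA and 5.58 and 5.71 CPM with USP47 shRNA. Its log2 fold change was -0.59 (SE 0.17, adjusted p = 0.0389), and no exon of another gene overlaps it (chr12:120881767-120884187).

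The death genes that p53 is best known to induce besides BBC3 were not called. PMAIP1, which encodes the BH3-only protein NOXA, had 13.2 and 12.8 CPM with control shRNA and 11.9 and 13.7 CPM with USP47 shRNA, and its log2 fold change of -0.030 had a 95% interval from -0.37 to 0.31. A rise as large as that of BBC3 lies outside this interval. BAX, the pore-forming effector, had 32.5 and 37.1 CPM against 36.4 and 45.4 CPM (log2 fold change 0.23, adjusted p = 0.313).

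Of the death receptors, FAS had 11.3 and 11.2 CPM with control shRNA and 16.6 and 14.1 CPM with USP47 shRNA (log2 fold change 0.46, SE 0.15, adjusted p = 0.069), the largest rise in value among genes that were not called. Exons of ACTA2 on the other strand overlap FAS. TNFRSF10B, the receptor for TRAIL, had a log2 fold change of -0.11 with a 95% interval from -0.40 to 0.18. The apoptotic nuclease AEN, the ribosomal protein paralog RPS27L and the oxidoreductase TP53I3 had log2 fold changes of 0.24, 0.12 and 0.014 (adjusted p = 0.227, 0.574 and 0.971). RPS27L resembles RPS27, so reads of the pair may be split uncertainly.

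**Figure D3:**
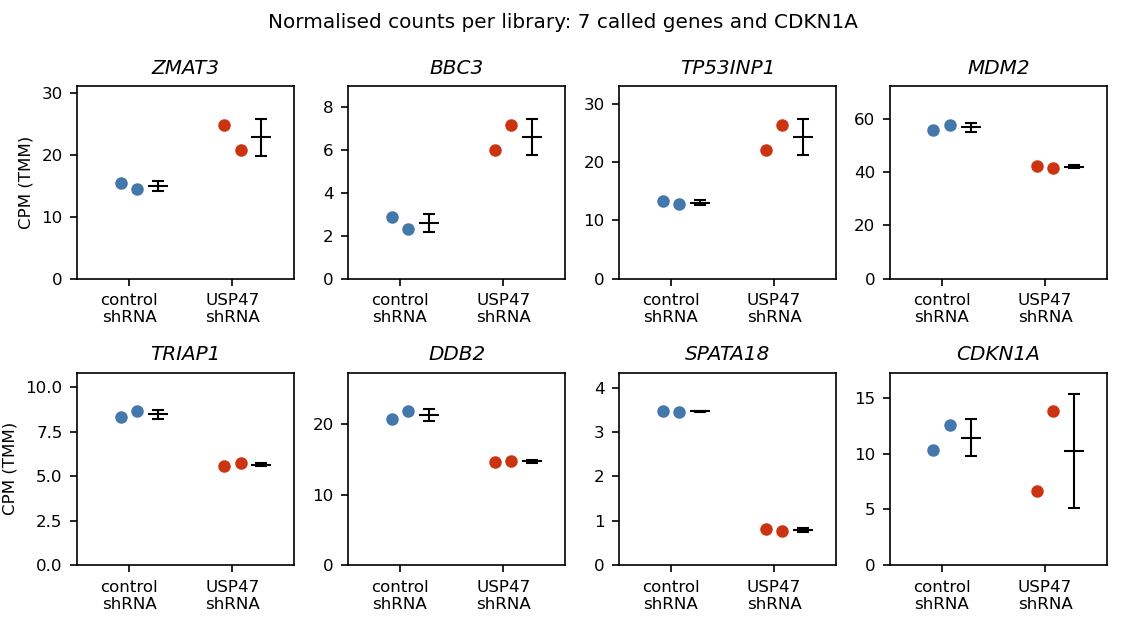
CPM after TMM scaling in each library for the 7 genes that were called and for CDKN1A, with blue points for control shRNA, red points for USP47 shRNA, and the mean and SD (n = 2) beside each pair. The groups are apart in the 7 called genes, while the CDKN1A points of the knockdown (6.64 and 13.9 CPM) lie below and above both controls.

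Of the 4 repair genes, DDB2 fell. DDB2 recognises ultraviolet lesions for nucleotide excision repair, and it had 20.7 and 21.9 CPM with control shRNA and 14.6 and 14.8 CPM with USP47 shRNA. The groups did not overlap, with a log2 fold change of -0.53 (SE 0.14, adjusted p = 0.0283), 0.691 times the control level. The gene lies at chr11:47236016-47260768, with the p53 sequence of 1 mismatch at its start, and no exon of another gene overlaps it.

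XPC, which works with DDB2 in finding lesions, did not follow it. It had 42.2 and 38.8 CPM with control shRNA and 37.4 and 38.8 CPM with USP47 shRNA, and its log2 fold change of -0.088 had a 95% interval from -0.37 to 0.19. POLH, the polymerase that copies past ultraviolet lesions, was at 37.7 and 41.3 CPM against 41.6 and 43.6 CPM (log2 fold change 0.11). RRM2B, the ribonucleotide reductase subunit that p53 induces, had 10.3 and 8.16 CPM against 14.6 and 9.62 CPM. Its log2 fold change of 0.41 (adjusted p = 0.215) came from USP47 shRNA replicate 1, without which it was 0.074.

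In the remaining group, SPATA18 showed the largest change of all 30 genes. SPATA18, also called Mieap, takes part in the clearance of damaged mitochondrial proteins. It was counted 59 and 68 times with control shRNA and 17 and 11 times with USP47 shRNA, or 3.48 and 3.47 CPM against 0.817 and 0.766 CPM. The knockdown libraries kept 23.5% and 22.1% of the control level, with a log2 fold change of -2.12 (SE 0.27, adjusted p = 0.00128). No exon of another gene overlaps it (chr4:52917470-52963465).

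FDXR, which feeds electrons to mitochondrial steroid and iron-sulfur enzymes, had 17.8 and 20.13 CPM with control shRNA and 13.5 and 17.7 CPM with USP47 shRNA (log2 fold change -0.29, adjusted p = 0.263). TIGAR, a phosphatase that lowers glycolytic flux, and the zinc-finger gene ZNF79 had log2 fold changes of 0.094 and 0.27 (adjusted p = 0.727 and 0.279). Hence 1 of the 4 genes tested in this group was called, or 25% beside 16.1% of all genes tested.

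The called genes differed in how far their calls held across the alternatives. BBC3, TP53INP1 and SPATA18 were called in each of the 11 refits, including the 4 that each left out 1 library. With the added demand of an absolute log2 fold change of at least 1, BBC3 and SPATA18 were left, beside 5.54% of all genes. In the DESeq2 Wald test, which called 13.2% of all genes, MDM2 (adjusted p = 0.0753), DDB2 (adjusted p = 0.0799) and TRIAP1 (adjusted p = 0.184) lost their calls, and ZMAT3 lost its call with library size alone as scaling (adjusted p = 0.082). Without control shRNA replicate 1 and then without replicate 2, MDM2 had log2 fold changes of -0.46 and -0.41. Those of DDB2 were -0.57 and -0.50, those of TRIAP1 -0.62 and -0.56, and those of ZMAT3 0.67 and 0.56. These 4 genes were not called in either fit, and fewer of all genes tested were called there too. The direction of these 4 genes was kept in each alternative. Leaving out a knockdown library added calls instead, here as over all genes tested. CDKN1A and BTG2, given above, each gained a call in a single fit. For the others that did, log2 fold changes are given first without USP47 shRNA replicate 1, then without replicate 2. PPM1D (0.42 and 0.41) and CCNG1 (-0.38 and -0.30) gained a call in both. GADD45A (0.50 and 0.28), BAX (0.39 and 0.067), AEN (0.33 and 0.17) and PLK2 (0.33 and 0.011) gained one without replicate 1. FAS (0.34 and 0.57), RRM2B (0.074 and 0.67) and FDXR (-0.092 and -0.49) gained one without replicate 2.

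Among the 30 genes, CDKN1A was 2.09 times, GDF15 1.96 times and RRM2B 0.658 times as high in USP47 shRNA replicate 2, which kept less USP47, as in replicate 1. These 3 were the genes whose knockdown libraries lay more than 1.5 times apart, or 10% of the 30, beside 16.1% of all genes tested. Control libraries lay that far apart in 0 of the 30 genes and in 8.61% of all genes tested, so the knockdown libraries spread more widely than the controls over all genes too. BTG2, at 1.495 times, lay just inside that limit. The 4 genes that fell had knockdown ratios between 0.938 (SPATA18) and 1.02 (TRIAP1), so both libraries gave nearly the same value for them. Genes whose libraries agree pass the test more readily, so this closeness is not separate support for the calls. Whether the difference between the knockdown libraries follows the amount of USP47 was not tested.

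**Figure D4:**
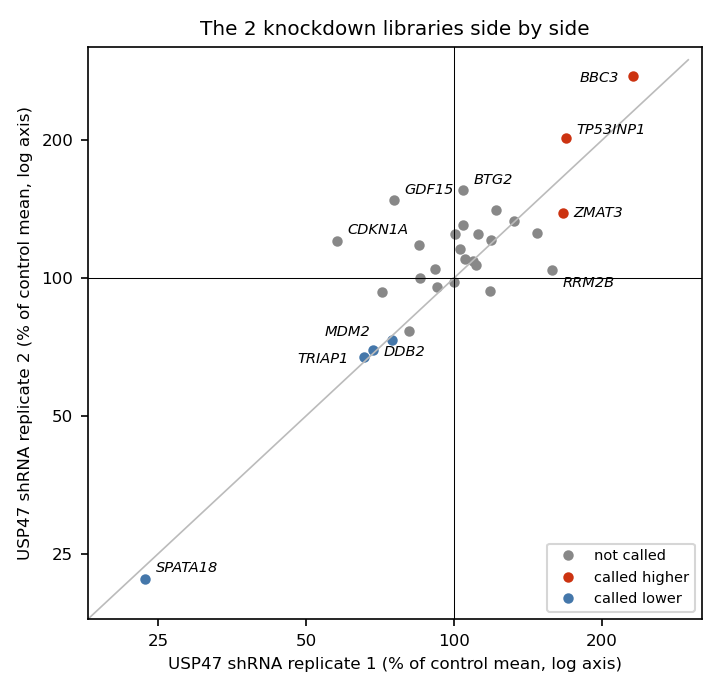
Level of each of the 30 tested genes in USP47 shRNA replicate 1 (x axis) and replicate 2 (y axis), as percent of the control mean on log axes. The 7 called genes lie near the diagonal, while CDKN1A (57.8% and 120.8%), GDF15 (75.6% and 147.9%) and RRM2B (158.3% and 104.1%) lie away from it. Genes whose libraries agree pass the test more readily.

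Genes that act on or with p53 were described from a separate list of 39. All were tested, 3 rose and 5 fell, or 20.5% called beside 16.1% of all genes tested, and the median log2 fold change was 0.078 beside -0.0083. TP63 was counted 86 and 95 times with control shRNA and 23 and 28 times with USP47 shRNA (log2 fold change -1.75, SE 0.27, adjusted p = 0.00326), and TP73 163 and 175 times against 106 and 88 times (log2 fold change -0.73, SE 0.18, adjusted p = 0.0212). Both encode transcription factors that recognise p53 sequences. RFFL, a ubiquitin ligase that acts on p53, fell from 11.9 and 11.7 CPM to 5.43 and 7.59 CPM (log2 fold change -0.88, adjusted p = 0.0132). The deubiquitinase USP7, which stabilises MDM2 and p53, was not called (log2 fold change -0.19, adjusted p = 0.315).

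A list of 59 other genes reported as p53 targets held calls in both directions too. Of the 53 tested, 6 rose and 8 fell, or 26.4% called, and the median log2 fold change was 0.033. Over all genes tested 16.1% were called, 6.52% higher and 9.56% lower, with a median of -0.0083. With library size alone as scaling, the median of the list was -0.042 and that of all genes -0.072. The smallest p belonged to TP53I11, which fell from 44.7 and 53.2 CPM to 16.6 and 20.2 CPM (log2 fold change -1.42, SE 0.15, adjusted p = 0.000679). CPT1C, a neuronal relative of the carnitine palmitoyltransferases, fell from 68 and 55 counts to 20 and 10 counts (log2 fold change -1.99, SE 0.31, adjusted p = 0.00345). BAK1, the partner of BAX in forming mitochondrial pores, fell from 24.5 and 24.3 CPM to 12.3 and 15.9 CPM (log2 fold change -0.80, SE 0.16, adjusted p = 0.00952).

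Genes of the cell cycle that p53 is known to repress indirectly, through p21 and the DREAM complex, were mostly not called. Of 30 such genes, 5 fell, 0 rose and 25 did not pass the test. Thus 16.7% fell, beside 9.56% of all genes tested, and 0 rose, beside 6.52% of all genes. A log2 fold change below 0 was found in 26 of the 30 and in 50.8% of all genes tested, with medians of -0.22 and -0.0083. With library size alone as scaling, 2 of the 30 (6.67%) fell, beside 1919 of 21932 genes tested. With that scaling 93.3% of the 30 lay below 0, beside 56.8% of all genes tested. The 3 with the smallest p were AURKA (log2 fold change -0.60, adjusted p = 0.014), CENPA (-0.58, adjusted p = 0.0181) and KIF23 (-0.75, adjusted p = 0.0237), all with roles in mitosis. KIF23 was at 70.4 and 61.3 CPM with control shRNA and 47.2 and 30.7 CPM with USP47 shRNA, both below the controls. In some of the 30 the fall lay mostly in USP47 shRNA replicate 2. In replicates 1 and 2, CENPF stood at 99.6% and 40.9% of the control mean, TTK at 96.6% and 58.4% and BUB1B at 93.9% and 64.9%. Others did not share this split, such as CENPA (67.6% and 65.9%) and CDC20 (104% and 117.1%). The paper reports slower growth of HGC-27 cells after USP47 knockdown, and its part in these values was not tested.

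**Figure D5:**
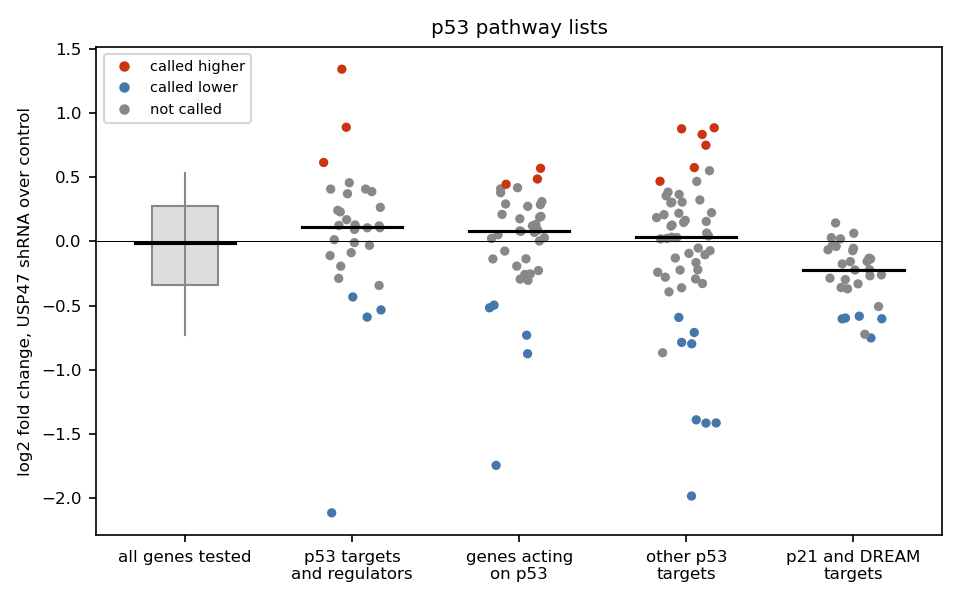
Log2 fold change, USP47 shRNA over control shRNA, of the tested genes of 4 lists (points, coloured by call, with the median as a black line), beside all genes tested (box from the 25th to the 75th percentile, line from the 10th to the 90th). The p53 targets and regulators have a median of 0.11, and the p21 and DREAM targets one of -0.22, with 26 of 30 points below 0 and 5 genes called.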

How the data were processed

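Reads were trimmed below a quality score of 20, mapped to hg19 with STAR 2.7.5c and stripped of duplicates and low-quality reads with SAMtools 1.9 by the authors, and featureCounts is named without a version in the submitters' processing notes. The authors deposited raw counts per gene, FPKM and TPM for 63568 identifiers. The annotation and strand setting are not given in the sources used here, and the labels name a stranded kit but the methods another. Removal of duplicates without molecular identifiers can compress the changes of abundant genes. Copies of 7SL RNA held 7.11% to 9.72% of counts and weigh on TPM, so deposited TPM only ordered genes within the control group. Deposited FPKM served only to recover gene lengths.

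Counts were tested with edgeR 4.0.16 in R 4.3.3 (filterByExpr, TMM, robust quasi-likelihood fit without the legacy option, 2-sided test), with genes called at an adjusted p under 0.05. SE was taken as the size of the change over the root of F, and 95% intervals use the t quantile of the fit. Alternatives were the DESeq2 1.42.0 Wald test, the legacy fit, 2 scalings, 2 filters, a minimum change, a replicate block and each library left out. The steps were tested on simulated data. Symbols (55665 matched), positions and sequences came from GRCh37, the same assembly as hg19, with GENCODE release 44 lifted to it. FAS, with no canonical transcript there, was searched from its gene start.

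Named are USP47, all 34 members and, from each of the 3 pathway lists, the 3 genes with the smallest p, and 1 further gene of this rule is not reported here. The marker lists served to check the cell line, and USP7 and the tests of FN1, EPCAM and SNAI2 were chosen after their values were seen. The members and lists were chosen with earlier results of these data known, and the pathway lists were written from memory. With 2 libraries per group, the spread of a gene rests largely on that shared by genes of similar abundance.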

Additional observations from a re-analysis of the deposited data

How the results depend on the processing

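The 3527 genes called over all genes became 2284 in the DESeq2 Wald test, 1216 when an absolute change of at least 1 on the log2 scale was also required, and between 1230 and 7270 when 1 library was left out. Of the genes described here, 3 rose and 4 fell. The DESeq2 Wald test left 3 that rose and 1 that fell, and the minimum change left 1 of each (BBC3 and SPATA18). When 1 library was left out, between 2 and 9 rose and between 1 and 7 fell, fewest without either control library (2 rose and 1 fell) and most without USP47 shRNA replicate 1 (9 rose and 5 fell) or replicate 2 (6 rose and 7 fell). In these fits the lone library of a group is assumed to vary like the others. The median log2 fold change of the 30 genes (0.11) lay between 0.061 and 0.19 with 1 library left out, highest without USP47 shRNA replicate 1, and was 0.047 with library size alone as scaling, where that of all genes was -0.072. Over all alternatives, 299 of 330 values of single genes kept their side of the threshold, 12 lost a call and 19 gained one. Of the 30 genes, 23 were not called in the comparison of all 4 libraries, so most of these values had no call to lose. All lost calls were those of MDM2, TRIAP1, DDB2 and ZMAT3. A gene that changed sign without a call in either fit was counted as keeping its side. The cause of these shifts was not tested.

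With the replicate number as a block, 7422 genes were called over all genes, and 8 of those described here rose and 5 fell, which included all 7 of the comparison without a block. PPM1D, BTG2, GADD45A, FAS and RRM2B were then called higher and CCNG1 lower. The deviations of the same-numbered libraries correlated at 0.325 across genes. The sources do not tie a number to a batch and there are only 2 pairs, so the libraries were taken to share only a number. Counts of 2 libraries limit calls to larger changes: the SE of the 30 genes ran from 0.12 to 0.37 on the log2 scale.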
